A study of Rattus norvegicus with 23 samples.

Results

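The microRNA miR-22 was followed through both of its arms, rno-miR-22-3p and rno-miR-22-5p (miR-22-3p and miR-22-5p below), in rat PC12 cells. These are the 2 entries named for miR-22 among the 413 entries of the sRNAbench count table, chosen by name and for the abundance of the 3p arm, and both passed the filter on low counts that left 269 entries to test. The level of miR-22-3p over all libraries is therefore a description with no test, and that its difference between the lines had been called in an earlier analysis was known when it was chosen. PC12 is a rat pheochromocytoma line, and small RNA was sequenced from a line stably carrying the pcDNA3 blank vector and from a line stably expressing α1ACT, a transcription factor encoded within the calcium channel gene CACNA1A. The α1ACT construct carried 11 polyglutamine repeats and a 3xFlag tag, and stable clones of both lines had been selected with G418. Cells were split and taken 6 h, 24 h, 3 d or 10 d later. The vector line had 2 libraries at 6 h, and the other 7 groups had 3 each, 23 in all. The number of clones behind a line is not given, so a difference between the lines and a difference between clones cannot be told apart, and nothing in the labels says that replicates were grown apart. The p-values then cover the spread among these libraries, which may be technical.

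A microRNA is cut from a hairpin precursor as a short duplex, of which usually one strand, the guide, is kept in Argonaute and the other, the passenger, is lost. The guide pairs with messenger RNAs mainly through its seed, bases 2 to 8 from the 5′ end. The guide of miR-22 is its 3p arm, which is highly conserved among vertebrates, is abundant in heart and skeletal muscle, and is known to target HDAC4 and TET2. It has also been described as protective in models of neuronal injury.

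The mature arms are shown with the seed in capitals, since the seed defines the microRNA's family, and the hairpin with both arms in capitals, since the results compare its arms (all from RefSeq, rat build GRCr8, 5′ to 3′).
miR-22-3p: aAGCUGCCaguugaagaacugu
miR-22-5p: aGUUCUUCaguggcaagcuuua
mir-22 hairpin: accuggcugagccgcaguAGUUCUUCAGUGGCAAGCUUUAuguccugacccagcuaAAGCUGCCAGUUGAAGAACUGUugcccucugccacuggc

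Each arm has 22 bases. In the hairpin of 95 bases the 5p arm takes positions 19 to 40 and the 3p arm positions 57 to 78. In the fold predicted by RNAfold, 19 of the 22 bases of the 5p arm paired with the 3p arm, and all 7 bases of the 3p seed were in that duplex. Neither seed was shared: of the 693 mature names in the RefSeq table, 1 had the seed of miR-22-3p and 1 that of miR-22-5p, miR-22 itself in each case. In that gene table no other gene overlapped the hairpin, and the nearest were the hairpin gene Mir6326 on one side and Tlcd2 on the other, both within 10 kb. Mir6326 was almost unread, with 2 counts over the 23 libraries in the sRNAbench table and 9 in a second deposited table made with Chimira.

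One pair of libraries has a doubtful name, which bears on several values of the vector line. In 21 libraries the Chimira table gave between 100.3% and 100.6% of the miR-22-3p count of the sRNAbench table. For the vector line at 6 h, replicate 2, there were 103119 counts by sRNAbench and 182174 by Chimira, while for the vector line at 10 d, replicate 2, there were 181587 and 103553. Set crosswise, the Chimira counts were 100.4% and 100.3% of the sRNAbench counts, so the names of these columns are exchanged in one of the tables. Which table is right was not settled. The sRNAbench names are used below, and where exchanging the pair or leaving it out changed a call or an order, the changed value is given beside it. Library totals ran from 448557 (vector line, 3 d, replicate 1) to 5070120 counts.

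The 3p arm was one of the main microRNAs of these cells. It took 6.17% of all counts, the sixth largest share, between miR-30a-5p above it (6.59%) and miR-182 below (3.13%). In the vector line its share of a library was lowest at 4.14% (24 h, replicate 2), had a median of 5.70% and was highest at 6.59% (10 d, replicate 3; n = 11). In the α1ACT line the lowest share was 5.08% (3 d, replicates 2 and 3), the median 6.47% and the highest 8.01% (10 d, replicate 1; n = 12). Counting error is small beside this spread, with an exact (Clopper-Pearson) 95% interval of 4.11% to 4.16% for the lowest library. The rank among all entries was 6 in each vector library. In the α1ACT line it was 5 or 6, and 5 in the 3 libraries of 10 d.

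The 5p arm was scarce. Its count ran from 3 (vector line, 3 d, replicate 1, the shallowest library) to 76 (α1ACT line, 10 d, replicate 1), and it summed to 717 over the 23 libraries against 3711075 counts of the 3p arm. The 5p arm made up 0.0193% of the counts of the hairpin. Among 78 hairpins with both arms listed and at least 10000 counts, this was the tenth smallest share of a minor arm, where the median was 0.817%, and of the 31 hairpins whose major arm was the 3p, miR-375, miR-101b and miR-130a were more one-sided. At 3 counts the exact Poisson 95% interval is 0.619 to 8.77, so values of the 5p arm are coarse. Intervals cover counting error alone. They treat each read as an independent molecule, which reads copied by PCR need not be, so they may be too narrow.

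Levels were then compared as CPM, counts relative to the library total, scaled between libraries by trimmed mean of M values (TMM). At 6 h the α1ACT libraries held 63479, 59991 and 61705 CPM of miR-22-3p and the vector libraries 59677 and 46465. At 24 h the α1ACT libraries held 65858, 62778 and 69621 CPM and the vector libraries 58134, 44482 and 62202. All 3 α1ACT libraries stood above every vector library at both times, by a narrow margin at each. Under the sRNAbench names replicate 2 was the lowest library of its group in both lines at all 4 times. With the doubtful pair exchanged it was the higher of the 2 vector libraries of 6 h. At 3 d the α1ACT libraries held 55059, 51435 and 52062 CPM and the vector libraries 57297, 48066 and 51242, and the groups overlapped. At 10 d the α1ACT libraries held 77746, 73298 and 78058 CPM and the vector libraries 66716, 62483 and 70016, again without overlap. Of all tested entries, 14.9%, 8.18%, 6.32% and 10.8% had every α1ACT library above every vector library at 6 h, 24 h, 3 d and 10 d, and 3.72% did so at 3 or more of the 4 times, miR-22-3p among them. With the doubtful pair exchanged, the vector libraries of 6 h held 59677 to 62483 CPM and overlapped the α1ACT libraries, while those of 10 d held 46465 to 70016 and stayed below them. At 24 h the groups overlapped in the Chimira table, where the lowest α1ACT library held 59098 CPM and the highest vector library 59822. They also overlapped at 24 h when both doubtful libraries were left out, which moved the scaling (60999.6 against 62473 CPM).

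**Figure D1:**
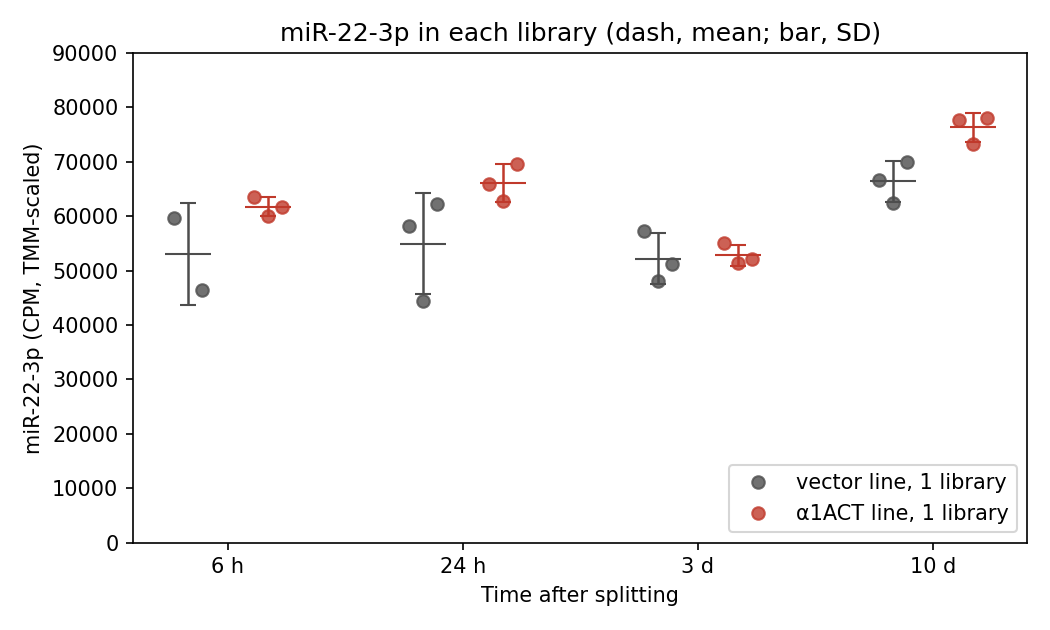
TMM-scaled level of miR-22-3p (vertical axis, CPM) by time after splitting (horizontal axis). Each point is 1 library, dashes are group means and bars SDs. Under the sRNAbench names both lines have their lowest mean at 3 d and their highest at 10 d. The α1ACT libraries then lie above the vector libraries at 6 h, 24 h and 10 d. With the doubtful pair exchanged the vector line has no peak at 10 d, with means of 61080 CPM at 6 h and 61066 at 10 d. The groups overlap at 6 h with the doubtful pair exchanged, and at 24 h in the Chimira table or with the pair left out.

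Ordered by mean level, the groups ran from the α1ACT line at 10 d (76367 ± 2663 CPM, SD, n = 3), over the vector line at 10 d (66405 ± 3776, n = 3), the α1ACT line at 24 h (66086 ± 3427, n = 3) and the α1ACT line at 6 h (61725 ± 1744, n = 3), to the vector line at 24 h (54940 ± 9282, n = 3). The vector line at 6 h (53071 ± 9343 CPM, SD, n = 2), the α1ACT line at 3 d (52852 ± 1937, n = 3) and the vector line at 3 d (52201 ± 4690, n = 3) came last. Between neighbours in this order, only the step from the first to the second exceeded the larger SD of the pair with no overlap of libraries. The step from the α1ACT line at 24 h to that at 6 h also exceeded it, but these groups overlapped. The other 5 steps were smaller than the larger SD of the pair. With the doubtful pair exchanged, the vector line stood at 61080 CPM at 6 h and 61066 at 10 d, behind all α1ACT groups but that of 3 d. With both libraries left out, the vector line at 10 d again came after the α1ACT line at 10 d, and the vector line at 6 h, then 1 library, came just after the α1ACT line at 6 h.

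The first comparison asked whether the lines differ, and miR-22-3p was higher in the α1ACT line by a small step. As the mean of the 4 times the fitted fold was 1.13, from 56980 ± 8427 CPM (SD, n = 11) in the vector line to 64257 ± 9099 CPM (SD, n = 12). The log2 fold change was 0.18 (SE 0.0559, adjusted p = 0.0415 by Benjamini-Hochberg in edgeR's quasi-likelihood test), beside 12.6% of all tested entries called in either direction and 6.69% called higher. The median log2 fold change over all tested entries was 0.00. With the doubtful pair exchanged in the sRNAbench table the log2 fold change was 0.16 and the call was lost (edgeR, Benjamini-Hochberg adjusted p = 0.171). In the Chimira table it was 0.17 under the deposited names (edgeR, adjusted p = 0.120) and 0.19 with the pair exchanged (edgeR, adjusted p = 0.0230). With both libraries left out it was 0.12 (edgeR, adjusted p = 0.232), and without vector 6 h replicate 2 alone it was also 0.12 (edgeR, adjusted p = 0.184).

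At single times the difference did not pass the test. At 6 h the log2 fold change of miR-22-3p was 0.22 (SE 0.122, edgeR adjusted p = 0.446), and at 24 h it was 0.27 (SE 0.108, edgeR adjusted p = 0.390). It was 0.02 for the 3 d libraries (SE 0.108, edgeR adjusted p = 0.986) and 0.20 for the 10 d libraries (SE 0.108, edgeR adjusted p = 0.409). Few entries passed at a single time: 0.372% at 24 h, 0.372% at 3 d and 1.49% at 10 d. At 6 h edgeR called 0 entries (30 had an unadjusted p under 0.05), DESeq2 3 and limma-voom 0. The difference at 6 h rested on the doubtful library, since it was 0.02 with the pair exchanged and -0.02 in the Chimira table. At 10 d it was 0.32 with the pair exchanged and 0.38 in the Chimira table, neither called. The difference between the lines was not shown to change with time (edgeR interaction test, Benjamini-Hochberg adjusted p = 1.00), in a test where edgeR called 0 entries (10 had an unadjusted p under 0.05), DESeq2 2 and limma-voom 0.

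**Figure D2:**
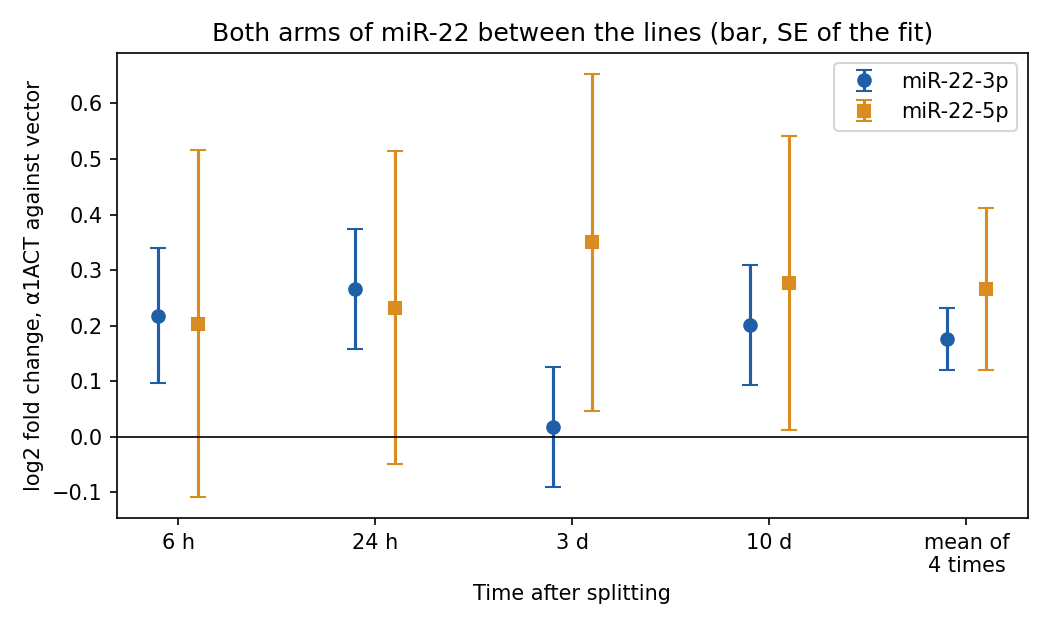
Fitted log2 fold change of the α1ACT line against the vector line (vertical axis) for both arms, by time and averaged over the 4 times (horizontal axis). Points are estimates and bars their SE. The 3p arm is at 0.02 at 3 d and between 0.20 and 0.27 at the other times, and the 5p arm has positive estimates with wide bars throughout.

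Ratios of counts within a library need no scaling between libraries, and they gave the same direction. The log2 ratio of miR-22-3p to each of the 9 other entries among the 10 most abundant was compared as the mean of the 4 times. Each was higher in the α1ACT line, by between 0.18 (against miR-26a-5p) and 0.44 (against miR-30a-5p). Against miR-10b-5p, let-7f-5p, miR-182, let-7i-5p and miR-26a-5p the ratio was higher at 3 of the 4 times, and against the rest at all 4. Against miR-30a-5p, its neighbour in rank, the mean log2 ratio was -0.32 ± 0.158 (SD, n = 11) in the vector line and 0.13 ± 0.122 (SD, n = 12) in the α1ACT line, so that miR-22-3p was the scarcer of the pair in one line and the more abundant in the other. Of these 9 entries, miR-30a-5p (-0.26) and miR-27b-3p (-0.16) were called lower by edgeR, and the other 7 were not called. The call of miR-27b-3p was lost with the doubtful pair exchanged (edgeR adjusted p = 0.115) or left out (edgeR adjusted p = 0.0802). With the pair exchanged the 9 ratios differed between the lines by 0.17 to 0.44, and with both left out by 0.082 to 0.42. In both settings the ratio to miR-10b-5p was higher in the α1ACT line at 2 of the 4 times. These ratios share miR-22-3p as their numerator and are a description.

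The second comparison followed the time after splitting. In the α1ACT line its means over the times in order were 61725, 66086, 52852 and 76367 CPM, so that a fall to 3 d was followed by the highest level of the series. The 4 times differed (edgeR quasi-likelihood F test, Benjamini-Hochberg adjusted p = 0.00220), beside 42.4% of all tested entries. From 6 h to 10 d the fold was 1.24 (log2 fold change 0.31 with SE 0.108, adjusted p = 0.0348 in edgeR), beside 27.1% of entries called in either direction and 11.2% called higher. This call was lost when any 1 of 6 libraries was left out (α1ACT 6 h replicates 1, 2 and 3, α1ACT 3 d replicate 3, and α1ACT 10 d replicates 1 and 3), with log2 fold changes of 0.25 to 0.32.

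Steps between neighbouring times were added after the levels were seen. From 24 h to 3 d the 3p arm fell by 0.32 on the log2 scale in the α1ACT line (SE 0.108, edgeR, Benjamini-Hochberg adjusted p = 0.0297), beside 22.3% of entries called in either direction and 12.3% called lower. From 3 d to 10 d it rose by 0.53 (SE 0.109, edgeR, adjusted p = 0.000546), a fold of 1.44, beside 32.7% of entries called in either direction and 16.7% called higher. Every library of 10 d lay above every library of 3 d, as for 26.4% of entries. This step was called in 36 of 36 alternative settings, with log2 fold changes of 0.51 to 0.65. From 6 h to 24 h the log2 fold change was 0.10 (SE 0.108, edgeR, adjusted p = 0.599), beside 10.4% of entries called, 2.6% higher and 7.81% lower. The fall from 24 h to 3 d was the less stable step, and its call was lost without α1ACT 24 h replicate 1 or 3 or α1ACT 3 d replicate 2 or 3, and with the doubtful pair exchanged in the sRNAbench table (edgeR, adjusted p = 0.0867).

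In the vector line the levels of miR-22-3p were 53071, 54940, 52201 and 66405 CPM at 6 h, 24 h, 3 d and 10 d, flat over the first 3 times and higher at the last. The 4 times differed (edgeR F test, Benjamini-Hochberg adjusted p = 0.0358, beside 36.8% of entries), but with the doubtful pair exchanged they did not (edgeR, adjusted p = 0.490). From 3 d to 10 d the log2 fold change was 0.35 (SE 0.108, edgeR, adjusted p = 0.0181), beside 25.3% of entries called in either direction and 13% called higher. Every library of 10 d lay above every library of 3 d, as for 22.3% of entries, but with the doubtful pair exchanged these groups overlapped. The call was lost without vector 3 d replicate 2 or any 1 of the 3 vector libraries of 10 d. With the pair exchanged this change was 0.23 and not called (edgeR, adjusted p = 0.224), and with both libraries left out it was 0.35 and called (edgeR, adjusted p = 0.0256). From 6 h to 10 d the log2 fold change was 0.32 (SE 0.122, edgeR, adjusted p = 0.0781), beside 11.9% of entries called, with 5.2% of all entries higher. It was 0.00 with the pair exchanged, 0.07 with both left out and 0.31 with the replicate number as a block (edgeR, adjusted p = 0.0379). From 6 h to 24 h it was 0.05 (SE 0.121) and from 24 h to 3 d -0.07 (SE 0.108), neither called by edgeR (adjusted p = 0.909 and 0.704), beside 1.12% and 23.8% of entries called.

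Among the 10 most abundant entries, miR-22-3p and miR-30a-5p were the pair called higher at 10 d than at 3 d in both lines under the sRNAbench names, with miR-30a-5p at 0.44 in the α1ACT line and 0.42 in the vector line. The endocrine miR-375-3p (-0.25 in each line) and miR-16-5p (-0.30 and -0.32) were called lower in both. The vector line also had miR-10b-5p (0.49) and miR-26a-5p (0.32) called higher. With the doubtful pair exchanged, the vector line kept the call of miR-16-5p alone among these, and miR-22-3p (0.23), miR-30a-5p (0.30), miR-10b-5p (0.41), miR-26a-5p (0.27) and miR-375-3p (-0.27) were not called by edgeR. In the α1ACT line miR-375-3p and miR-16-5p then lost their calls (edgeR adjusted p = 0.0509 and 0.0752), and miR-22-3p and miR-30a-5p kept theirs. With both left out, miR-10b-5p alone lost its call in the vector line (edgeR adjusted p = 0.124).

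**Figure D3:**
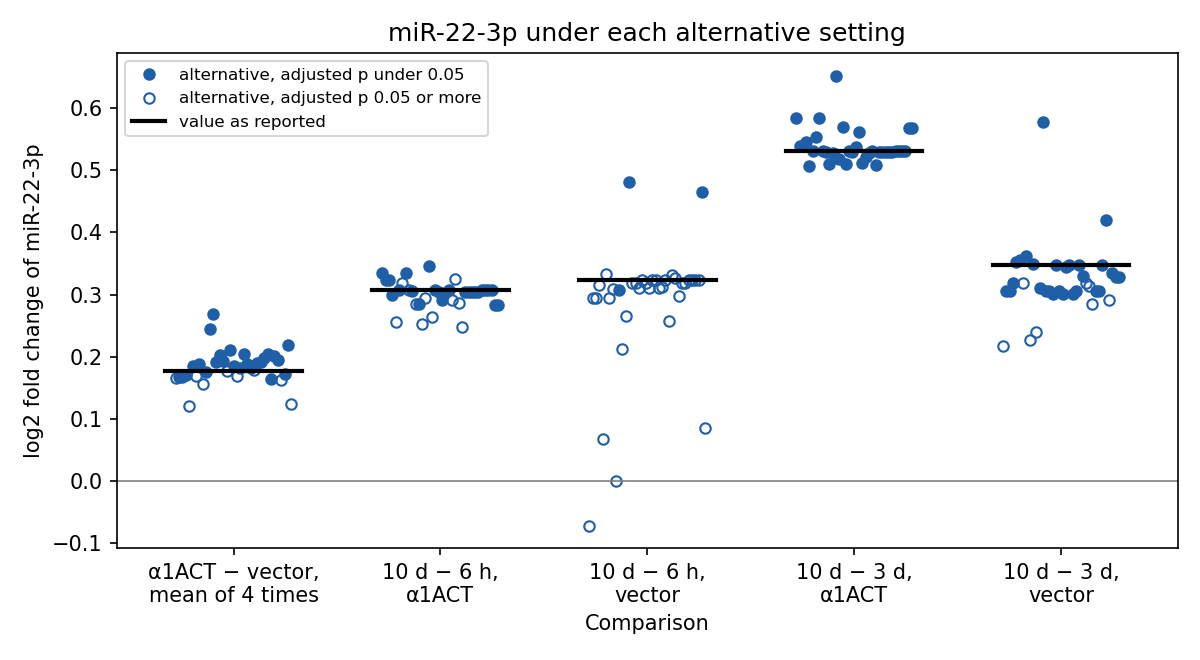
Log2 fold change of miR-22-3p (vertical axis) in 5 comparisons (horizontal axis) as reported (black lines) and under each alternative setting (points, filled where the adjusted p is under 0.05). The step from 3 d to 10 d in the α1ACT line is filled in all 36 settings, and the step from 6 h to 10 d in the vector line spans -0.07 to 0.48.

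The 5p arm had estimates in the same direction as the 3p arm between the lines, at a precision that does not separate them from 0. Its level was 10.4 ± 2.57 CPM (SD, n = 11) in the vector line and 12.7 ± 2.63 CPM (SD, n = 12) in the α1ACT line, with a log2 fold change of 0.27 and an SE of 0.145 (edgeR adjusted p = 0.237). In the vector line its counts were 34 and 22 at 6 h, 30, 27 and 14 at 24 h, 3, 17 and 40 at 3 d, and 53, 31 and 41 at 10 d. In the α1ACT line they were 31, 28 and 30 at 6 h, 44, 27 and 25 at 24 h, 29, 25 and 14 at 3 d, and 76, 52 and 24 at 10 d. The counts of the lines overlapped at each time, and the r of the log2 CPM of the 5p arm with the log2 library total was 0.42. At single times the log2 fold change ran from 0.20 at 6 h (SE 0.312) to 0.35 at 3 d (SE 0.303), and the groups overlapped at all 4 times. In each line its lowest mean was at 3 d (7.73 ± 2.64 CPM in the vector line and 10.3 ± 2.95 in the α1ACT line, SD, n = 3 each). From 3 d to 10 d the log2 fold change was 0.56 (SE 0.292) in the vector line and 0.48 (SE 0.276) in the α1ACT line, neither called (edgeR, Benjamini-Hochberg adjusted p = 0.150 and 0.179). A difference between the lines of the size seen for the 3p arm, 0.18, is close to the SE of the 5p arm and was not detectable at these counts.

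The ratio of the arms did not differ beyond its spread between the lines. The mean log2 ratio of 3p to 5p counts was 12.3 ± 0.280 (SD, n = 12) in the α1ACT line and 12.4 ± 0.340 (SD, n = 11) in the vector line, a difference of -0.11 (two-sided permutation test, 100000 resamples, p = 0.385). In counts, each read of the 5p arm stood beside 3758 (α1ACT line, 6 h, replicate 3) to 8520 reads of the 3p arm (vector line, 3 d, replicate 1, with its 3 counts of the 5p arm). The group means were 4375 to 7225 reads, lowest at 6 h in both lines.

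**Figure D4:**
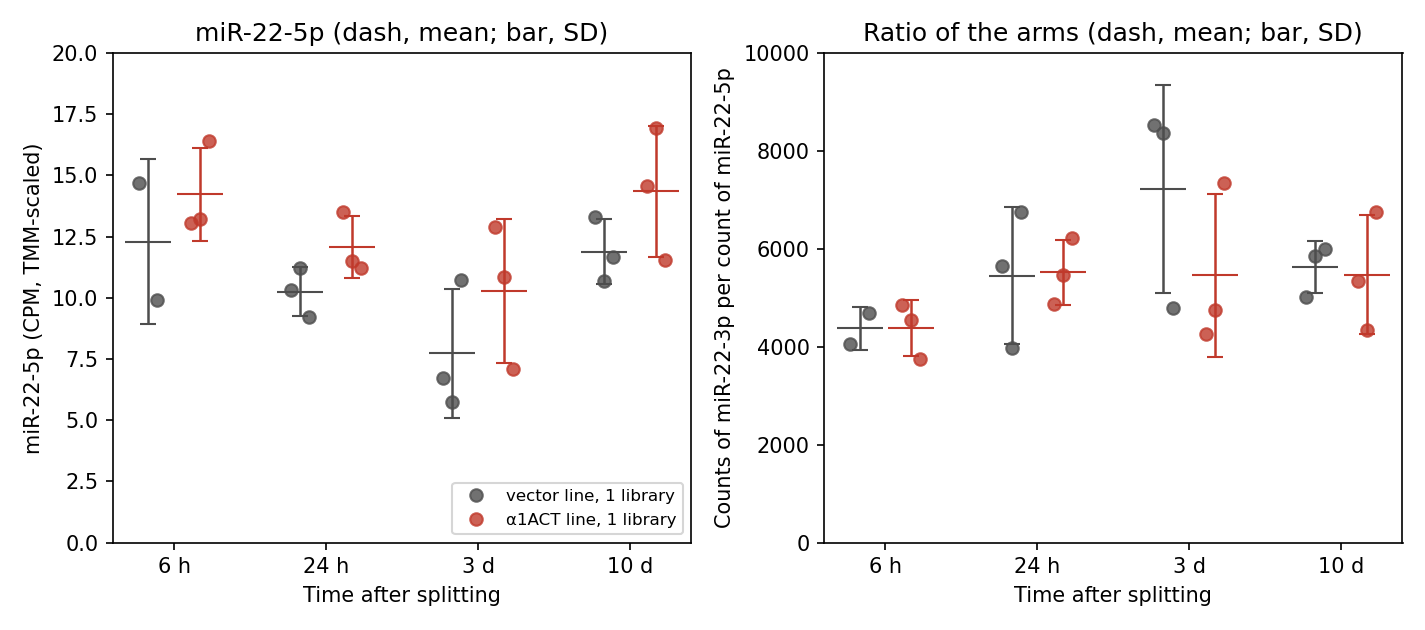
Left, TMM-scaled level of miR-22-5p (vertical axis, CPM) by time after splitting (horizontal axis); right, counts of the 3p arm per count of the 5p arm. Points are libraries, dashes group means and bars SDs. Levels of the 5p arm stay under 17 CPM and the groups overlap at every time.

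Across the 23 libraries a few microRNAs followed the level of miR-22-3p closely. Likeness was measured as Pearson's r of log2 CPM over the other entries with a mean of at least 10 CPM, of which the median r was 0.05 with 38 above 0.5 and 30 under -0.5. The 5 most alike were miR-153-3p (r = 0.87), miR-338-3p (0.85), miR-1843a-5p (0.84), miR-29a-3p (0.80) and miR-138-5p (0.80). Of these, miR-153 and miR-138 are enriched in brain, miR-338 is known from oligodendrocytes and neurons, and miR-29a is known for targeting collagens. The 3 least alike were miR-195-3p (r = -0.88), miR-484 (-0.78) and, from the miR-17-92 cluster, miR-92a-3p (-0.77). The points share their library, its depth and its scaling, and the r of miR-22-3p with the log2 library total was 0.20. When each library was taken as its deviation from its group's mean, r stayed at 0.84 for miR-153-3p, 0.74 for miR-29a-3p and -0.70 for miR-195-3p. It was 0.66 for miR-1843a-5p, -0.69 for miR-484, 0.42 for miR-338-3p, 0.34 for miR-138-5p and -0.15 for miR-92a-3p. These deviations rest on the group names: with the doubtful pair exchanged r was -0.63 for miR-92a-3p and 0.66 for miR-338-3p, and with both left out it was 0.76 for miR-138-5p and 0.06 for miR-92a-3p. The r with the scarce miR-22-5p was 0.52.

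The sequences of the most alike microRNAs other than miR-1843a-5p are shown to compare their seeds (capitals) with that of miR-22-3p. None holds the same seed, and neither does miR-1843a-5p (RefSeq, GRCr8).
miR-153-3p: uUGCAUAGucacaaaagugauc
miR-338-3p: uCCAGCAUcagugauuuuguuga
miR-29a-3p: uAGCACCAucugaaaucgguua
miR-138-5p: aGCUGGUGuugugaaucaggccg

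For miR-153-3p the group means in the α1ACT line were 178, 198.6, 121 and 243 CPM over the times in order, with the same low at 3 d and high at 10 d as miR-22-3p. Between the lines miR-338-3p (0.23), miR-1843a-5p (0.21) and miR-138-5p (0.23) were called higher by edgeR, and miR-153-3p (0.05) and miR-29a-3p (0.00) were not called. With the doubtful pair exchanged or left out, miR-138-5p kept its call (0.21 and 0.27), and miR-338-3p (0.18 and 0.21) and miR-1843a-5p (0.19 and 0.17) did not. At the other end miR-92a-3p had its highest mean of the α1ACT line at 3 d (2371 CPM) and its lowest at 10 d (1074 CPM).

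**Figure D5:**
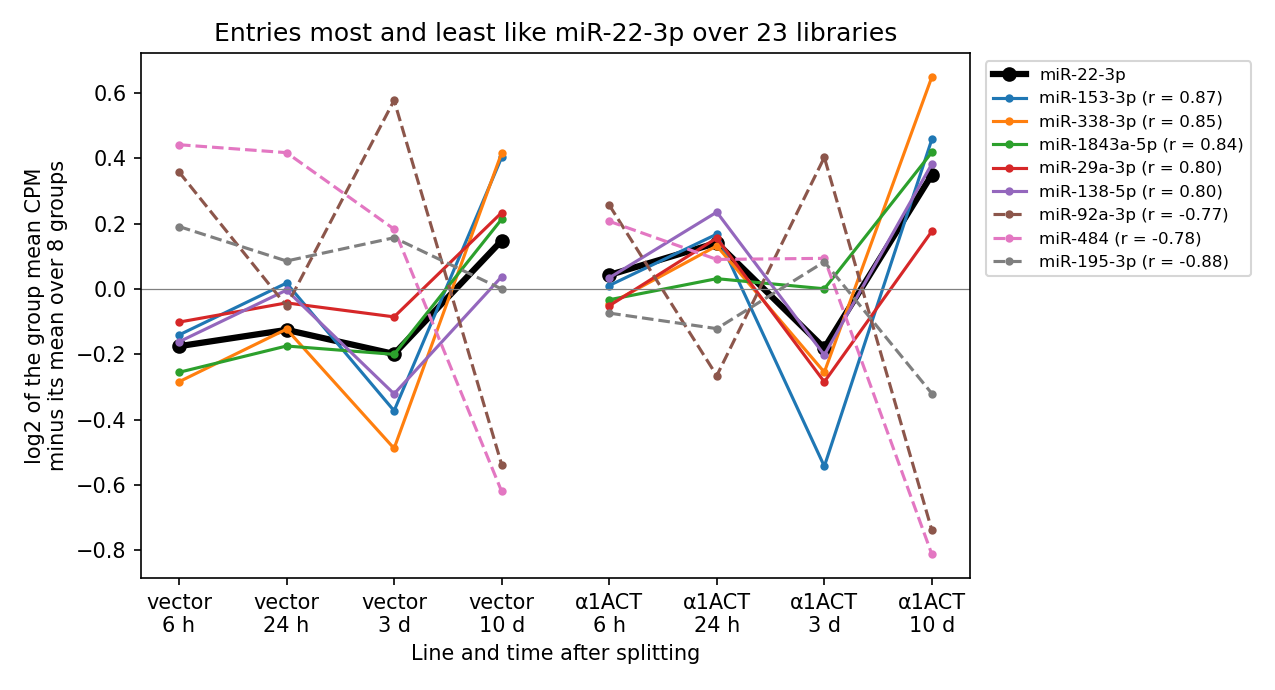
Log2 group mean CPM minus its mean over the 8 groups (vertical axis) for miR-22-3p (thick black line) and for the 5 most alike (solid) and 3 least alike entries (dashed), by line and time after splitting (horizontal axis). miR-153-3p shares the low at 3 d and the high at 10 d of miR-22-3p in the α1ACT line, where miR-92a-3p and miR-484 are at their lowest at 10 d.

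Lists of microRNAs linked to miR-22 by regulator or tissue, or to neurons, were read beside it, in the mean comparison of the lines, against 6.69% of all entries called higher and 5.95% called lower. Of the p53-linked microRNAs, a group to which miR-22 has also been assigned, 8 of 10 hairpins were listed and 7 entries tested. Of these, 3 were called higher and 0 lower, with log2 fold changes of 0.16 for miR-192-5p, 0.33 for miR-34a-5p and 0.47 for miR-34c-5p. The median log2 fold change was 0.16, while the most abundant uncalled members, miR-16-5p and miR-194-5p, were at -0.10 and 0.16. With the doubtful pair exchanged or left out, 1 of the 7, miR-34c-5p (0.44 and 0.40), was called higher. Of all tested entries, 9 of 269 and 8 of 278 were then called higher. The neuronal list joins neuronal microRNAs and ones linked to the repressor REST. Of its 13 tested entries 3 were called higher and 0 lower, namely miR-9a-5p (0.70), miR-129-5p (0.49) and miR-138-5p, with a median over the 13 of 0.22. The abundant members miR-29a-3p and miR-128-3p (-0.05) were not called. With the pair exchanged or left out, miR-9a-5p (0.71 and 0.78) and miR-138-5p kept their calls and miR-129-5p (0.40 and 0.49) did not. That left 2 of 13 and 2 of 14 tested entries of this list called higher, beside 9 of 269 and 8 of 278 of all entries. Of the muscle and heart microRNAs, tissues in which miR-22 is abundant, 2 of 7 hairpins were listed. There miR-499-5p was the 1 entry tested and called higher (0.52, mean 13.6 CPM), a call lost with the pair exchanged (0.43) or left out (0.48), and miR-133a-3p had 2 counts in all.

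From 3 d to 10 d in the α1ACT line, where miR-22-3p rose, 1 of the 7 tested p53-linked entries was called higher and 1 lower by edgeR, and 3 and 1 of the 13 of the neuronal list. Of all entries, 16.7% were called higher and 16% lower. With the pair exchanged, 0 of the p53-linked entries were called lower by edgeR, as miR-16-5p lost its call, beside 33 of all 269 entries called lower.

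Markers of cell types were read to check the label. Those of neuroendocrine cells summed to 158102 to 233818 CPM over all libraries. Most of this came from miR-375-3p and miR-182 (TMM-scaled means of 146795 and 31338 CPM). Not all of the list was high, as miR-7a-5p had a mean of 5.88 CPM and miR-7b 28 counts in all. Markers of mesenchymal and endothelial cells summed to 475 to 1408 CPM in the vector line and 397 to 873 in the α1ACT line. In the mean comparison of the lines, edgeR called 1 of their 4 tested entries, miR-143-3p, which was lower in the α1ACT line (-0.76). It made no call for miR-199a-3p (0.01), miR-126a-5p (-0.19) or miR-126a-3p (-0.17), so the list did not move as a set. The part of these markers in the difference of miR-22-3p was not tested. The medium held horse and bovine serum, which carry microRNAs of blood cells and liver. Of 7 entries for blood cells, the summed level was 0 to 7.83 CPM in the vector line and 0 to 11.8 in the α1ACT line. There 5 of 6 hairpins were listed, and miR-451-5p, which marks red blood cells, had 28 counts in all. The most read was miR-142-5p, with 204 counts and a mean of 3.03 CPM, not called between the lines (0.40). At this low level edgeR called it higher from 3 d to 10 d in the α1ACT line (2.46, adjusted p = 0.0218). The liver marker miR-122 is not among the entries of the table. The muscle marker miR-133a-3p (2 counts) and the neuronal marker miR-124-3p (2 counts) were near 0.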

How the data were processed

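Both tables give raw read counts for each mature microRNA entry, as the authors deposited them; sRNAbench (413 entries, the main table) and Chimira (627 entries) are named per the file headers and names, and edgeR per the submitters' processing notes. No source used here gives the aligner, miRBase release, tool versions or genome build. Groups follow the sample titles. Columns named control were taken as the vector line and columns named WT as the α1ACT line, an assumption. Each table has 12 further columns of no sample, which were not used. From the sRNAbench counts, 1 entry without a name (0% of counts) was left out. Library totals ran from 448557 to 5070120 counts.

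Counts were fitted in edgeR 4.0.16 (R 4.3.3) with filterByExpr (269 entries kept), TMM factors, 1 mean per group over 23 libraries and robust quasi-likelihood tests. A call is a Benjamini-Hochberg adjusted p under 0.05 over all tested entries. SEs come from the log2 fold change and its F value. The common biological coefficient of variation was 16.1%. CPM are TMM-scaled, and log2 CPM used a prior count of 0.5. The arm ratio used a pseudocount of 0.5. Lists were matched on hairpin names. Marker sums are CPM of library totals. Named entries were both arms, those sharing a seed, the 10 most abundant and the 5 most and 3 least alike. List members called were also named, plus up to 2 abundant ones not called. The other markers of cell types named, among them miR-451-5p, miR-133a-3p, miR-124-3p and miR-143-3p, and the minor arms were added after their values were seen. One further list is not reported here. The members and lists were chosen with earlier results of these data known. RefSeq (GRCr8) held a sequence for 381 of 413 entry names, both arms of miR-22 among them; folding used RNAfold 2.7.2. Replicates were checked for duplicates: chi-square per degree of freedom of their counts was 18.0 to 180, so none was. The steps were tested on simulated data.

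Alternatives were the Chimira table, 3 scalings, 2 filters, DESeq2 1.42.0, limma-voom (limma 3.58.1), a replicate block, the compared groups alone, the exchanged columns, and leaving out libraries.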

Additional observations from a re-analysis of the deposited data

How the results depend on the processing

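Of the 18 comparisons, the α1ACT time F test, the α1ACT steps from 6 h to 24 h and from 3 d to 10 d, the lines at 24 h and at 10 d, the interaction, the 5p arm and the arm ratio kept their direction, where they have one, and their side of the threshold in all alternatives run. For the others the cause of a lost call was not tested.

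For the lines as the mean of the 4 times, the log2 fold change of miR-22-3p was positive in 35 of 35 alternatives and called in 26. It was not called in the Chimira table (0.17), without a low-count filter (0.17), with the pair of vector columns exchanged in the sRNAbench table (0.16) and with both left out (0.12). With the pair named as in the sRNAbench table, edgeR called it from the counts of either table (adjusted p = 0.0415 and 0.0230). With the pair named as in the Chimira table it was called from neither (edgeR, adjusted p = 0.171 and 0.120). The other scalings, filters, methods and left-out libraries were run under the sRNAbench names alone, so the 26 calls do not bear on which names are right. Leaving out 1 library gave 0.12 to 0.22, not called without vector 6 h replicate 2, α1ACT 6 h replicate 3, α1ACT 24 h replicate 1, vector 3 d replicate 2 or α1ACT 3 d replicate 1. Over all entries 34 were called as reported, 19 in the Chimira table, 18 with the exchange and 16 with both left out. At 6 h the sign turned in the Chimira table (-0.025). At 3 d, near 0, it turned under RLE factors (-0.0080), no filter (-0.017), at least 10 counts in every library (-0.019) and DESeq2 (-0.0080), and leaving out 1 library gave -0.038 to 0.090.

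For 10 d against 6 h the α1ACT call was lost under library totals (0.29), upper-quartile factors (0.25), no filter (0.32), the exchange (0.31) and both left out (0.26), and leaving out 1 library gave 0.25 to 0.35. In the vector line the change was -0.073 in the Chimira table and -0.00032 with the exchange, and it passed under upper-quartile factors (0.48) and a replicate block (0.31); leaving out 1 library gave 0.084 (without vector 6 h replicate 2) to 0.47 (without vector 6 h replicate 1, called). The vector time F test had adjusted p of 0.318 (Chimira), 0.265 (library totals), 0.0634 (RLE), 0.0976 (no filter), 0.0619 (DESeq2), 0.490 (exchange) and 0.0632 (both left out), and 0.0166 to 0.211 with 1 library left out, so it was called in 14 of 35.

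From 24 h to 3 d the α1ACT fall lost its call in the Chimira table (-0.34) and with the exchange (-0.32), and leaving out 1 library gave -0.38 to -0.27. In the vector line it was -0.16 to 0.025 with 1 library left out. From 3 d to 10 d the vector rise lost its call in the Chimira table (0.22), under library totals (0.24), without a filter (0.32) and with the exchange (0.23), and leaving out 1 library gave 0.29 to 0.42. From 6 h to 24 h the vector change was -0.22 in the Chimira table, -0.020 under library totals, -0.15 with the exchange and -0.19 with both left out, and -0.17 to 0.21 with 1 library left out.

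Over all tested entries, same-numbered libraries of the lines did not steadily deviate together (correlations from -0.56 to 0.58 over 11 pairs, 4 above 0.1). For miR-22-3p, though, replicate 2 was the lowest library of every group under the sRNAbench names. Whether same-numbered libraries share a batch was not tested. With the replicate block the mean difference was 0.18 (SE 0.0456, edgeR, adjusted p = 0.0115), beside an SE of 0.0559 without it. The block changed no call other than the one named. Without 1 of the 2 vector libraries of 6 h, the lone one is assumed to vary like the other groups. The 5p arm was not tested under the strict filter. Depth limits the 5p arm, at 3 to 76 counts.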
